A study of Mus musculus with 8 samples.

Results

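The genes described here are 10 genes of the lysosome in mouse lens fiber cells (FC), chosen by symbol out of the 35275 genes listed in the deposited table. They are the cysteine cathepsins Ctsb, Ctsh, Ctsl and Ctsz, the aspartic cathepsin Ctsd, the serine carboxypeptidase Ctsa, the cathepsin inhibitor Cst3 (cystatin C), the saposin precursor Psap, and the membrane glycoproteins Lamp1 and Lamp2. Each symbol matched 1 row, and the rule itself uses no measured value, although the genes were chosen with earlier results of these data known. RNA of lens FC was sequenced in 8 libraries, 4 from CS-exposed mice and 4 from untreated Ct mice of the same age, all C57BL/6 by the labels (C57BL/6J by the methods of the study) and with no transgene or deletion named. Each library was made from a pool of lens FC of 4 eyes. The CS-exposed mice were born in the smoke chamber, stayed there for 3.5 months and received smoke during 5 hours/day on 5 days/week, and the untreated Ct mice were kept in the animal facility over the same time. The study states that each group held 2 male and 2 female pools, but the labels do not say which library is which, and sex was not used. The comparison asks whether CS exposure altered RNA levels in lens FC.

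Lysosomes digest proteins, lipids and sugars in an acid lumen. Most cathepsins are made as inactive precursors, carried to the lysosome by mannose 6-phosphate receptors and activated there, and cystatin C is a secreted protein that blocks cysteine cathepsins. Prosaposin is cut into small saposins that help enzymes reach lipids, and LAMP1 and LAMP2 are heavily glycosylated proteins that line the lysosomal membrane. Lens FC remove their nuclei and organelles as they mature, and the lysosomal nuclease Dnase2b is needed to break down their nuclear DNA.

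Many lysosomal genes carry E-boxes with the letters CACGTG near their start, the core of the element bound by the transcription factor TFEB. Promoters were read from RefSeq (GRCm38.p6) as windows from 250 bases before to 50 after each annotated start, and 8 of the 10 genes had at least 1 window. CACGTG, which reads the same on both strands, was found in 4 of these 8 genes, namely Ctsl, Ctsd, Ctsa and Lamp1. By gene it was found in 8.09% of all genes with a window and in 12.74% of those tested below, and 7.15% of the 32851 windows of this length held it. Of the other lysosomal genes described below 24.74% held it, and of those that sort enzymes to the lysosome 46.15%. The longer TCACGTG, searched on both strands and overlapping the shorter motif, was found in Ctsd, Ctsa and Lamp1. It was found in 4.29% of all genes, in 7.67% of those tested, in 23.71% of the other lysosomal genes and in 46.15% of those that sort enzymes. The stretches with the matches are shown, 5′ to 3′ on the strand of the gene, because they are a sequence feature that part of the set shares, with CACGTG in capitals:
Lamp1 (plus strand): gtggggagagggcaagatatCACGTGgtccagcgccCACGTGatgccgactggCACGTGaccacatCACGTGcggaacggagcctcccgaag
Ctsa (plus strand): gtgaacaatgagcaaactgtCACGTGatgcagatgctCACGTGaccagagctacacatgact
Ctsd (minus strand): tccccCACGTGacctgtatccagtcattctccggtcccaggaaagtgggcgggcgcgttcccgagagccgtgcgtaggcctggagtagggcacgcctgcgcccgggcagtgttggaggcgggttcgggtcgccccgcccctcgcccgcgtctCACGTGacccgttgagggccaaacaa
Ctsl (minus strand): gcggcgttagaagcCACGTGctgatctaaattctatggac
The stretch of Lamp1 lies at chr8:13159080-13159171 and holds 4 matches upstream of the annotated start, the first beginning 61 and the last 15 bases before it. That of Ctsa lies at chr2:164833741-164833802, at the second of its annotated starts, and the window of the first start held no match. That of Ctsd lies at chr7:142387900-142388077, and that of Ctsl, with its single match near the far end of the window, at chr13:64370731-64370770. Starts are those of RefSeq, while the gene spans given below are those of GENCODE M21. In these spans the stretches of Ctsl and Ctsa lie inside the gene, and those of Ctsd and Lamp1 cross its end on the side of the start. No match was found in the windows of Cst3, Ctsz, Psap and Lamp2, which says only that these letters are not in these windows. A match is a description of the sequence and no measurement of binding.

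FPKM are fragments scaled to gene length and library size. Between about 18100000 and 23300000 fragments per library were estimated from the smallest steps between FPKM values, and 9794 genes passed the minimum for a test, a group mean of 1 FPKM or more. Lens fiber genes dominated every library, with the crystallin Crygs between 40327 and 44657 FPKM and the crystallin Cryba1 between 28465 and 30700 FPKM. Macrophages, which are rich in lysosomes, left almost no RNA. Of 11 macrophage markers 10 were listed, none was tested, the highest value was 0.40 FPKM, Tyrobp was at 0 in every library, and the sum ranged from 0.104 to 0.875 FPKM in untreated Ct and from 0.326 to 0.849 FPKM in CS-exposed libraries. The 5 fibroblast markers summed to at most 0.489 FPKM. In a bulk sample, fewer cells of a type and less RNA per cell cannot be told apart.

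Ctsd was the most abundant of the 10 genes. It encodes the main aspartic protease of lysosomes and lies on chromosome 7 of GRCm38 from 142375911 to 142388038. Its level was 144.4, 144.1, 137.7 and 141.0 FPKM in untreated Ct libraries and 133.9, 144.0, 139.8 and 144.3 FPKM in CS-exposed libraries, in the order of the replicate numbers. All 8 libraries lay within 1.08 times of each other, and at least 5428 reads stood behind each value. Ctsd was the 255th of the 9794 tested genes by mean FPKM. Among the 6 cathepsins of the set its share of the FPKM sum was 45.4 ± 3.52% (SD, n = 4) in untreated Ct and 46.2 ± 2.96% (SD, n = 4) in CS-exposed libraries.

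The other genes followed in steps from Cst3 down to Ctsh. Mean levels over the 8 libraries were 100.4 FPKM for Cst3, 80.2 FPKM for Psap, 76.5 FPKM for Ctsz, 70.3 FPKM for Ctsl, 41.1 FPKM for Lamp1, 38.4 FPKM for Lamp2, 13.4 FPKM for Ctsb, 7.36 FPKM for Ctsa and 0.197 FPKM for Ctsh. Neighbours in this order were compared within libraries, and no p is given, since the same 8 libraries set the order. In 7 of the 9 pairs of neighbours the upper gene was higher in 8 of 8 libraries. Psap was higher than Ctsz in 6 of 8, with a mean log2 difference of 0.07 ± 0.12 (SD, n = 8), and Ctsz was higher than Ctsl in 6 of 8, with 0.16 ± 0.38 (SD, n = 8), so that these neighbours differed by less than their spread. Lamp1 exceeded Lamp2 by only 1.07-fold, but in every library. FPKM of different genes depend on the gene lengths that the authors used, which are not given in the sources used here.

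**Figure D1:**
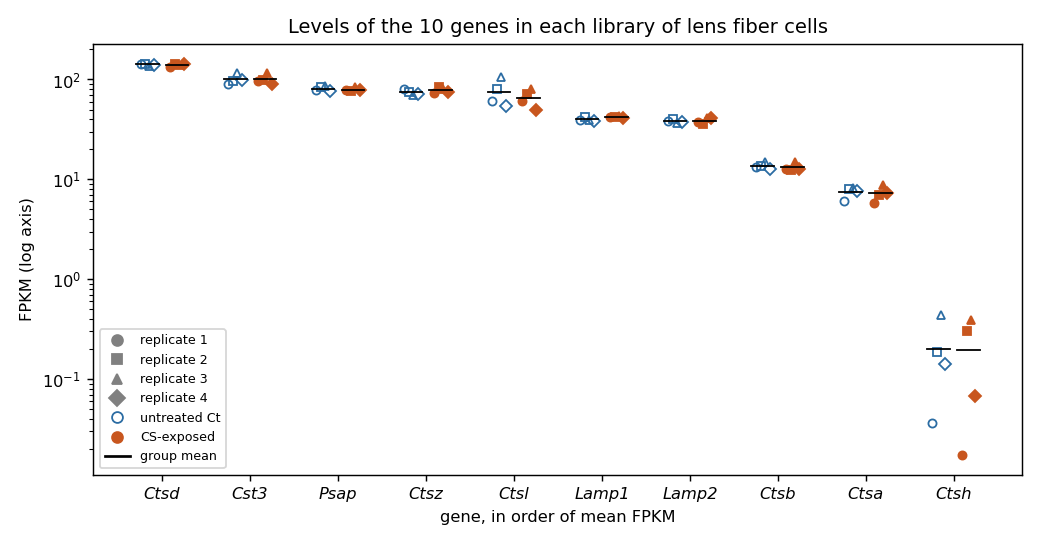
FPKM (log axis) of the 10 genes in each of the 8 libraries of lens FC, in order of mean FPKM, with open blue symbols for untreated Ct, filled orange symbols for CS-exposed libraries, a symbol shape for each replicate number and a black line for each group mean. Ctsd sits at the top between 133.9 and 144.4 FPKM, Ctsh at the bottom under 0.44 FPKM, and the 2 groups overlap for every gene.

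None of the genes of this set was called as different between CS-exposed and untreated Ct mice. Of the 10 genes, 9 reached the minimum of 1 FPKM and were tested on the log2(FPKM + 0.1) scale, which understates differences of low genes. In the limma fit over all 9794 genes, 0 of the 9 were called at an unadjusted p under 0.05, beside 4.83% of all tested genes, with 0 higher (2.75% of all) and 0 lower (2.08% of all). After Benjamini-Hochberg adjustment 0 of the 9 were called, beside 0.0102% of all tested genes. With limma-voom on reads recovered from the FPKM, 0 of the 9 were called at an unadjusted p under 0.05 as well. The log2 fold change was above 0 for 4 genes and below 0 for 5, with a median of -0.01 and a median size of 0.04, beside a median of 0.0043 and a median size of 0.08 over all tested genes. The sizes were not matched for level, and the 9 genes ranked between 255 (Ctsd) and 3495 (Ctsa) of all 9794 by mean FPKM. The values of the groups overlapped for all 9 genes, while they did not overlap for 3.08% of all tested genes. Limma adjusted p values ranged from 0.956 to 0.9995.

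The difference of Lamp1 had the smallest p value of the set. Lamp1, on chromosome 8 from 13159161 to 13175338, was at 39.3, 42.6, 39.3 and 38.5 FPKM in untreated Ct and at 42.3, 41.9, 43.5 and 41.2 FPKM in CS-exposed libraries. All 4 CS-exposed libraries were above the mean of untreated Ct, but untreated Ct replicate 2 lay among them. On the log2 scale it differed by 0.08 (standard error 0.05, limma p = 0.140, adjusted p = 0.956, exact permutation p = 0.114), and its 95% interval allowed a level between 0.979 and 1.15 times that of untreated Ct mice. Lamp2, on chromosome X from 38401357 to 38456454, whose splice forms serve different routes of autophagy, was at 38.1, 39.9, 36.7 and 37.7 FPKM and at 37.3, 35.6, 40.7 and 41.0 FPKM, with 2 CS-exposed libraries above the mean of untreated Ct. Its log2 fold change was 0.02 with a standard error of 0.06 (exact permutation p = 0.743). The splice forms cannot be told apart in values per gene. The ratio of Lamp1 to Lamp2 was 1.05 ± 0.0253 (SD, n = 4) in untreated Ct and 1.10 ± 0.0754 (SD, n = 4) in CS-exposed libraries, and the ranges overlapped.

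Ctsd differed by -0.01 on the log2 scale with a standard error of 0.04 (exact permutation p = 0.60), and its 95% interval, from 0.930 to 1.05 times, was the narrowest of the set. Psap, on chromosome 10 from 60277627 to 60302597, was at 77.8, 83.4, 86.2 and 77.4 FPKM in untreated Ct and at 77.7, 77.1, 83.6 and 78.6 FPKM in CS-exposed libraries. The log2 fold change of Psap was -0.03 with a standard error of 0.05 (exact permutation p = 0.514). In both groups the library numbered 3 was the highest for Psap and the others lay close together, apart from untreated Ct replicate 2. Ctsz, a carboxypeptidase on chromosome 2 from 174427493 to 174439039, was at 81.2, 75.3, 70.6 and 72.3 FPKM and at 73.2, 83.9, 80.7 and 75.1 FPKM. Its log2 fold change was 0.06 with a standard error of 0.06 (exact permutation p = 0.314), with 3 of 4 CS-exposed libraries above the mean of untreated Ct.

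Ctsb, a widely used lysosomal peptidase on chromosome 14 from 63122462 to 63145923, was much lower than Ctsl and Ctsz. It was at 13.4, 13.6, 14.9 and 12.7 FPKM in untreated Ct and at 12.8, 12.3, 15.0 and 12.6 FPKM in CS-exposed libraries, a difference of -0.05 on the log2 scale with a standard error of 0.08 (exact permutation p = 0.543). Ctsa, which protects beta-galactosidase and neuraminidase in a shared complex and lies on chromosome 2 from 164832873 to 164841032, was at 6.05, 8.01, 8.17 and 7.61 FPKM and at 5.86, 6.98, 8.83 and 7.36 FPKM. Its log2 fold change was -0.04 with a standard error of 0.13 (exact permutation p = 0.771), and in both groups replicate 1 was the lowest and replicate 3 the highest. Its partners Glb1 and Neu1 were at means of 3.54 and 3.40 FPKM in untreated Ct and of 3.47 and 3.57 FPKM in CS-exposed libraries.

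Cst3, on chromosome 2 from 148871722 to 148875692, had nearly equal group means. It was at 89.7, 96.8, 116.9 and 98.3 FPKM in untreated Ct and at 96.8, 99.8, 115.4 and 89.5 FPKM in CS-exposed libraries. The library numbered 3 stood above the others in both groups. The log2 fold change was 0.00059 with a standard error of 0.09 (exact permutation p = 0.971), and the interval ran from 0.875 to 1.14 times. The summed FPKM of the 4 cysteine cathepsins was 1.64 ± 0.151 times the FPKM of Cst3 (SD, n = 4) in untreated Ct and 1.56 ± 0.0815 times (SD, n = 4) in CS-exposed libraries. These ratios ranged from 1.42 to 1.75 and from 1.52 to 1.69, so that the second range lay within the first.

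**Figure D2:**
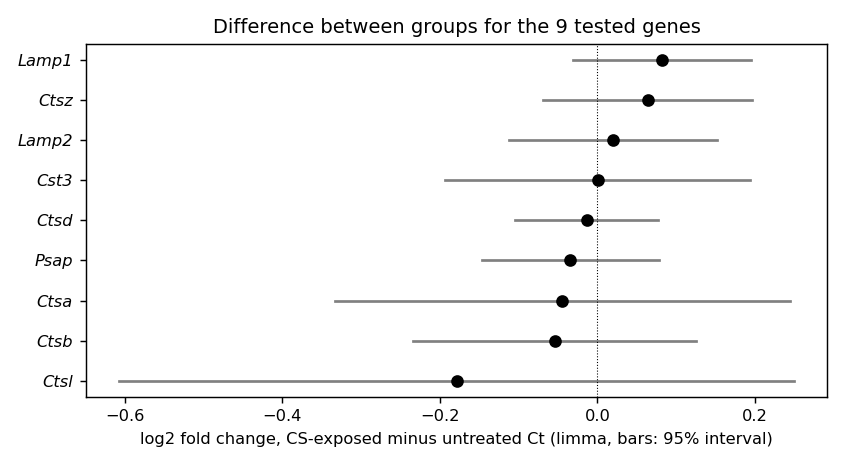
Difference of CS-exposed from untreated Ct libraries (x axis, log2 fold change, limma on log2(FPKM + 0.1), positive where CS-exposed is higher) for the 9 tested genes, with bars for the 95% interval. Every interval includes 0, and the bar of Ctsl, from -0.61 to 0.25, is the widest.

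Ctsl varied most between libraries of the same group among the 9 tested genes. Cathepsin L is a strong endopeptidase that is also secreted and can act on matrix proteins, and its gene lies on chromosome 13 from 64359337 to 64370890. Its level was 60.3, 80.7, 105.6 and 54.6 FPKM in untreated Ct libraries and 60.7, 71.7, 80.2 and 48.9 FPKM in CS-exposed libraries. The highest library was 2.16 times the lowest, and in both groups replicate 3 was highest, then replicate 2, then replicate 1, with replicate 4 lowest. The SD within groups was 0.37 on the log2 scale, while counting error at a median of 2834 reads gives 0.027. Among the 200 tested genes nearest to it in mean FPKM, 99.5% had a smaller SD within groups, and their median was 0.08. The difference of Ctsl was -0.18 on the log2 scale (standard error 0.20, limma p = 0.379, adjusted p = 0.981, exact permutation p = 0.543), and its interval allowed a level between 0.656 and 1.19 times that of untreated Ct. The size of this difference depended on single libraries. It was -0.00018 without untreated Ct replicate 3 and -0.05 without CS-exposed replicate 4, but -0.32 without untreated Ct replicate 4, -0.28 without CS-exposed replicate 3 and -0.27 without untreated Ct replicate 1, and it was called in none of these.

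Ctsh, on chromosome 9 from 90054152 to 90076089, was close to the limit of detection. Cathepsin H is an aminopeptidase of lysosomes, abundant in lung. It was at 0.0367, 0.185, 0.439 and 0.141 FPKM in untreated Ct and at 0.0173, 0.30, 0.391 and 0.0674 FPKM in CS-exposed libraries. These values rest on 2, 10, 28 and 7 reads and on 1, 19, 22 and 4 reads. With means of 0.20 and 0.194 FPKM it was under the minimum of 1 FPKM and was not in the limma fit. As for Ctsl, replicates 3 and 2 were the 2 highest libraries in both groups.

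The spread within groups, set against genes of a like level, ran from low to high over the 9 tested genes. Ctsd and Lamp1 had a smaller spread within groups than most genes of a like level, with 10.5% and 9.0% of the 200 nearest genes below them. For Ctsz, Psap, Ctsb and Lamp2 this share was 64.0%, 35.0%, 38.0% and 37.0%, and for Cst3 and Ctsa it was 95.5% and 82.5%. In both groups replicate 3 was the highest library for 6 of the 10 genes (Ctsb, Ctsh, Ctsl, Ctsa, Cst3 and Psap), of which 5 are among the 9 tested, where 11.5% of all tested genes showed this. The labels do not tie a replicate number to shared mice or a shared batch.

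Lens epithelium markers moved between libraries with some of these genes. The list has 8 genes, among them Foxe3, a transcription factor of lens epithelium, Cdh1, which encodes E-cadherin, and Sfrp1, a secreted Wnt inhibitor. Foxe3 was at 33.1, 34.8, 64.0 and 25.1 FPKM in untreated Ct and at 28.9, 32.5, 34.6 and 17.5 FPKM in CS-exposed libraries. Cdh1 was at 2.26, 3.09, 6.22 and 2.98 FPKM and at 2.10, 3.70, 4.17 and 2.22 FPKM. Both were highest in replicate 3 of each group, as were 4 of the 8 markers, while Sfrp1, the most abundant at 290.6 to 313.7 FPKM, was lowest in untreated Ct replicate 3. The 8 markers summed to between 348.7 and 399.5 FPKM in untreated Ct and between 338.5 and 381.7 FPKM in CS-exposed libraries, none was at 0 in all libraries, and 0 of the 6 tested were called between groups. Sfrp1 makes up most of these sums. By group means 7 of the 8 markers were lower in CS-exposed libraries, and the mean log2 value of the 8 was 2.33 in untreated Ct and 2.16 in CS-exposed libraries. For the genes highest in replicate 3 of both groups, the log2 difference was -0.18 for Ctsl, -0.10 for Ctsh, -0.05 for Ctsb, -0.04 for Ctsa, -0.03 for Psap and 0.00059 for Cst3. That of Ctsl was -0.00018 without untreated Ct replicate 3. The part of the markers in these differences was not tested.

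The mean log2 value of these 8 markers was set against each of the 10 genes over the 8 libraries, a comparison chosen after the values had been seen, with 10 relations in all. Ctsl had the highest Pearson r over all 8 libraries (Pearson r = 0.938, exact permutation p = 0.00109, adjusted p = 0.00942; Spearman rho = 0.810, exact permutation p = 0.0218, adjusted p = 0.0726), and leaving out the 2 libraries most distant from the marker median gave r = 0.848. For Ctsh r was 0.873 (exact permutation p = 0.00188, adjusted p = 0.00942) and rho 0.952 (exact permutation p = 0.00114, adjusted p = 0.0114), and r was 0.840 without these 2 libraries, on few reads. The rank relation of Ctsl thus missed 0.05 after adjustment, and that of Ctsh, which had the highest rho, did not. Without untreated Ct replicate 3, r was 0.882 for Ctsl and 0.903 for Ctsh. For Cst3 r was 0.851 (exact permutation p = 0.00590, adjusted p = 0.0153) and rho 0.738 (exact permutation p = 0.0458, adjusted p = 0.115). For Psap r was 0.881 (exact permutation p = 0.00610, adjusted p = 0.0153) and rho 0.595 (exact permutation p = 0.132, adjusted p = 0.220), and for Ctsb r was 0.808 (exact permutation p = 0.0133, adjusted p = 0.0267) and rho 0.619 (exact permutation p = 0.115, adjusted p = 0.220). Without the 2 libraries most distant from the marker median r was 0.604 for Psap, 0.449 for Cst3 and 0.304 for Ctsb, over a narrower range of the markers. Without untreated Ct replicate 3 alone it was 0.778 for Psap, 0.749 for Cst3 and 0.692 for Ctsb. Ctsa had r = 0.686 (exact permutation p = 0.0596, adjusted p = 0.0993) and rho = 0.857 (exact permutation p = 0.0107, adjusted p = 0.0536), with r = 0.592 without the 2 libraries. Ctsz, Ctsd, Lamp1 and Lamp2 had r between -0.150 and -0.012 (exact permutation p between 0.738 and 0.978, adjusted p between 0.83 and 0.978), and rho between -0.214 and 0.095 (exact permutation p between 0.619 and 0.935, adjusted p between 0.884 and 0.935). Without the same 2 libraries r was 0.569 for Ctsd, 0.426 for Ctsz, 0.342 for Lamp1 and -0.102 for Lamp2, and without untreated Ct replicate 3 alone it was above 0 for all 4, between 0.247 and 0.567, so that the sign for these genes rests on single libraries. Computed on deviations from the group means, r was 0.933 for Ctsl and 0.895 for Ctsh. The study separated the fiber cells from the epithelium under a microscope, and the part of any epithelium left in a pool in these levels was not tested. Only the epithelium list was set against the genes in this way. The mean log2 value of the rod markers, described below, was also highest in replicate 3 and lowest in replicate 4 of each group, like Ctsl. It was 0.69 and -0.55 in these untreated Ct libraries and 2.51 and 0.86 in these CS-exposed libraries, and its relation to the genes was not tested.

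**Figure D3:**
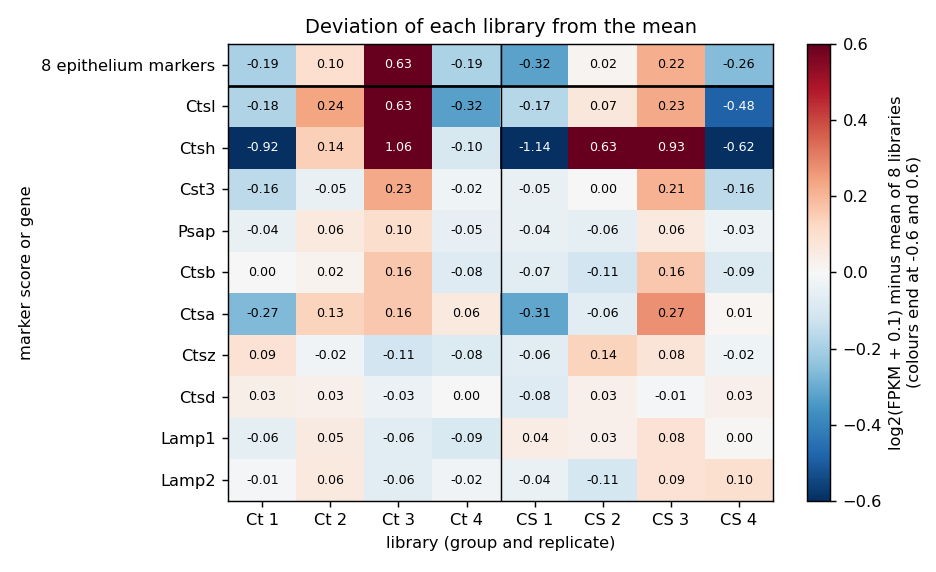
Deviation of each library (columns, group and replicate) from the mean of the 8 libraries on the log2(FPKM + 0.1) scale, for the mean of 8 lens epithelium markers (top row) and for the 10 genes, with red above and blue below the mean. The markers, Ctsl and Ctsh are far above their mean in untreated Ct replicate 3 (Ctsl 0.63, Ctsh 1.06), while the rows of Ctsd, Lamp1 and Lamp2 stay pale.

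The genes whose 8 values were most like the mean centred profile of the 10 genes were Luc7l, Impa1, Ddx17, Pabpn1 and Slc7a2, with a likeness of 0.974, 0.966, 0.966, 0.960 and 0.958 on the scale of Pearson r over 8 libraries. This profile is led by Ctsh, whose log2 values spread most. For Ctsl alone, a profile added after the values had been seen, the most alike were Itga3, S1pr3, Col4a1, Htra3 and Hif1a, with a likeness between 0.974 and 0.991. Col4a1, a chain of the type IV collagen of the lens capsule, had a mean of 133.7 FPKM. These are the closest of 9794 genes and are given as a description.

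Few of the other genes of the lysosome were called. Of 127 listed genes in 7 lists, 98 were tested, and 2 rose and 2 fell in CS-exposed mice at an unadjusted limma p value under 0.05, or 4.08% beside 4.83% of all tested genes. After adjustment 0 of the 98 were called (limma). The median log2 fold change was 0.01 and its median size 0.06. The lists were chosen with earlier results of these data known.

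Among the other proteases, 5 of 11 were tested and 0 called in either direction. Lgmn, the asparaginyl endopeptidase legumain, was at 65.6 ± 6.21 FPKM (SD, n = 4) in untreated Ct and 70.2 ± 7.77 FPKM (SD, n = 4) in CS-exposed libraries, near Ctsl in level, and Ctsf was at 27.1 ± 2.72 and 27.7 ± 2.13 FPKM (SD, n = 4 each). Tpp1, a tripeptidyl peptidase, had the largest difference of the 5, -0.17 on the log2 scale (exact permutation p = 0.20). Ctss and Ctsk, the cathepsins of antigen-presenting cells and of osteoclasts, reached at most 0.307 and 0.0986 FPKM, and Ctse and Ctsg were listed at 0 in every library. Of 10 further cystatins only Cstb, an inhibitor inside cells, was tested, with 30.3 ± 3.53 FPKM in untreated Ct and 27.5 ± 1.91 FPKM in CS-exposed libraries (SD, n = 4 each, exact permutation p = 0.257), and 5 were listed at 0 in every library.

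Among membrane genes, 16 of 21 were tested and 0 called. Laptm4a was the highest at 61.6 ± 6.78 and 62.2 ± 3.52 FPKM (SD, n = 4 each, untreated Ct first), followed by Abca2 at 32.3 ± 2.62 and 31.1 ± 0.798 FPKM. Ctns, the cystine exporter, differed by 0.25 (exact permutation p = 0.371) and Cln3 by 0.16 on the log2 scale (exact permutation p = 0.257). Cd68, a macrophage form of the LAMP family, reached at most 0.594 FPKM.

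Hydrolases of lipids and sugars gave 1 higher and 1 lower gene of 31 tested. Manba differed by -0.29 on the log2 scale (exact permutation p = 0.143). Dnase2b, the nuclease of fiber cell nuclei, was the most abundant at 70.1 ± 5.72 and 72.1 ± 3.995 FPKM (SD, n = 4 each, exact permutation p = 0.629), followed by Hexa at 24.0 ± 1.86 and 23.1 ± 2.53 FPKM.

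Of the proton pump that acidifies the lumen, all 17 listed genes were tested, and 0 were called higher and 1 lower. Atp6ap1, an accessory subunit, was at 20.2, 22.1, 22.3 and 20.8 FPKM in untreated Ct and at 19.6, 20.04, 19.5 and 16.7 FPKM in CS-exposed libraries, with every CS-exposed library below every untreated Ct library. It fell by 0.17 on the log2 scale (standard error 0.07, limma p = 0.0354, adjusted p = 0.956), and its exact permutation p = 0.0286 is the smallest that groups of 4 can give. Without CS-exposed replicate 4 the fold change was -0.11 and no longer called, nor was it called without untreated Ct replicate 2 or 3. Atp6v0a2 was above every untreated Ct library in every CS-exposed library, at 12.1 ± 0.657 and 13.1 ± 0.297 FPKM (SD, n = 4 each), with limma p = 0.10 and exact permutation p = 0.0286, and was not called. Atp6v1g1 was the most abundant at 105.7 ± 5.41 and 110.6 ± 4.39 FPKM, and Atp6v1f differed by 0.11 on the log2 scale (exact permutation p = 0.143).

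Of the genes that sort enzymes to the lysosome, 15 of 17 were tested and 1 was called. Gnptg, a subunit of the enzyme that builds the mannose 6-phosphate tag, was at 4.47, 3.51, 3.52 and 4.23 FPKM in untreated Ct and at 5.12, 4.52, 4.87 and 4.97 FPKM in CS-exposed libraries. It rose by 0.31 on the log2 scale (standard error 0.11, limma p = 0.0143, adjusted p = 0.956, exact permutation p = 0.0286), and no CS-exposed library overlapped the untreated Ct libraries. Vps35 and Vps29, parts of the retromer that recycles sorting receptors, were at 23.0 ± 1.33 and 23.5 ± 0.590 FPKM and at 14.7 ± 1.19 and 16.3 ± 1.34 FPKM (SD, n = 4 each), with exact permutation p = 0.429 and 0.20. Of the regulators 13 of 14 were tested and 0 called. Tfeb was at means of 5.18 and 5.38 FPKM, Lamtor2 at 75.9 ± 5.29 and 73.9 ± 5.03 FPKM and Lamtor1 at 29.4 ± 0.787 and 27.2 ± 2.40 FPKM (SD, n = 4 each). Zkscan3, a repressor of lysosomal genes, differed by 0.19 (exact permutation p = 0.0571) and Mtor by -0.16 on the log2 scale (exact permutation p = 0.314). The groups did not overlap for 5 of the 98 genes, beside 302 of all 9794 tested genes (3.08%). Among the 5 were Gnptg, Atp6ap1, Atp6v0a2 and Smpd1, the acid sphingomyelinase.

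**Figure D4:**
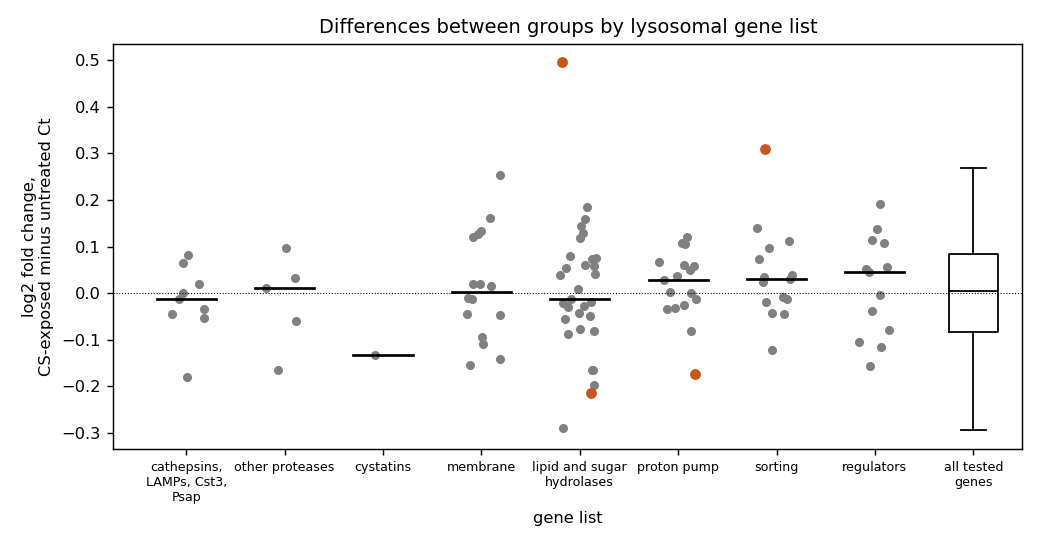
Difference of CS-exposed from untreated Ct libraries (y axis, log2 fold change) for the tested genes of the set and of 7 further lysosomal lists, each point a gene, orange where the unadjusted limma p value was under 0.05, with a black line at each median. The box at the right gives the quartiles of all 9794 tested genes with whiskers at the 5th and 95th percentiles (-0.29 and 0.27), and no gene of the set lies beyond the whiskers, while Gnptg, of the sorting list, lies above the upper one.

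Markers of other eye tissue differed between the groups. Rod markers summed to between 12.0 and 32.6 FPKM in untreated Ct and between 35.7 and 105.5 FPKM in CS-exposed libraries, 10 of the 11 tested were called higher, with Gnat1, a subunit of the rod G protein, the highest, and none of the 12 was at 0 in all libraries. Pigment epithelium markers summed to between 2.36 and 4.05 FPKM and between 4.04 and 27.6 FPKM, 4 of 4 tested were called higher, and of the 12 listed only Best1 was at 0 in every library. The 5 blood markers reached 1.73 FPKM in untreated Ct and 22.8 FPKM in CS-exposed replicate 4. The part of these tissues in the levels of Gnptg and Atp6ap1 was not tested.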

How the data were processed

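RNA of 8 pools of lens FC, 4 CS-exposed and 4 untreated Ct, was sequenced as paired reads. Alignment was to GRCm38 by STAR 2.5, HTSeq 0.6.1 gave counts per gene, and the authors deposited these as FPKM. The annotation release behind these FPKM is not given in the sources used here. Group means and a fold change and p-values made by the authors with DESeq2 stand in the same table and were not used.

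Groups and replicate numbers were taken from the sample titles. Whether p-values cover more than the spread between these pools cannot be said. A gene was kept where the mean of one group or the other was 1 FPKM or more. The test was limma 3.58.1 (lmFit, eBayes with a trend) in R 4.3.3 on log2(FPKM + 0.1), two-sided, with Benjamini-Hochberg adjustment over all 9794 genes. Single genes were also compared over all 70 assignments of the libraries, where the smallest exact p is 0.0286. Adjusted p values in the text without another name are from limma. Relative depth was found from FPKM steps, and whole reads, within 0.05 of a read, for 99.8% of tested genes. The number of fragments rests on GENCODE M21 gene lengths. Counting error alone is smaller than the spread between libraries for every tested gene of the set. The fit was tested on simulated data. Python 3.11.15 with numpy 2.4.6, pandas 2.3.3 and matplotlib 3.10.9 gave the remaining values and the figures.

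The genes of the set and all lists were chosen with earlier results of these data known. Named genes are the 10 of the set and, in each other list, those with an unadjusted p under 0.05, the 2 highest and the 2 with the largest fold change, with the 2 highest markers of the lens lists. The 5 genes most like the set were named by Pearson r. Ctss, Ctsk, Ctse, Ctsg, Cd68, Glb1, Neu1, Tfeb, Smpd1, Cdh1, Tyrobp and Best1 appear where a count or a known partner calls for them, some after their values were seen. Alternatives were other pseudocounts, minimum levels, centring, quantile normalization, eBayes settings, a replicate block, leaving out each library and limma-voom on recovered reads. Tests on counts as deposited were not possible, since FPKM were deposited. Protein sequences were not used here. Some genes that the rule names are not reported here.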

Additional observations from a re-analysis of the deposited data

Results flagged for a closer look

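In 82 groups of 4 libraries, covering the 10 genes, the named lysosomal genes and the marker sums, 6 libraries stood far from the other 3 of their group, where chance flags about 4.1. Ctsb was at 14.96 FPKM in CS-exposed replicate 3 and between 12.3 and 12.8 FPKM in the others. In untreated Ct replicate 3, Laptm4a stood at 71.7 FPKM, with the others between 57.7 and 58.5 FPKM. Atp6ap1 was at 16.7 FPKM in CS-exposed replicate 4, against 19.5 to 20.04 FPKM, which is the library that carries much of its difference between groups. Vps29 was at 18.3 FPKM in CS-exposed replicate 3, against 15.5 to 15.7 FPKM. The sum of macrophage markers was 0.849 FPKM in CS-exposed replicate 1, against 0.326 to 0.344 FPKM, a level of a few reads. The sum of blood markers was 22.8 FPKM in CS-exposed replicate 4, against 0.50 to 4.23 FPKM. No explanation was tested for these values.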

How the results depend on the processing

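Of the 9 tested genes, 0 had a p value under 0.05 in the comparison as reported and in every alternative but the replicate block. Same-numbered libraries deviated together with correlations across genes of 0.012 to 0.161, of which 2 of 4 were above 0.1. Of the 8 libraries 6 correlated best with their own number. The labels do not tie the numbers to shared mice or a shared batch, and the comparison as reported therefore did not pair them. With the replicate block 1 of the 9 tested genes of the set, Ctsl, passed an unadjusted p of 0.05 at a fold change of -0.18. In the same fit 522 of all 9794 tested genes passed it, and 5 were called after adjustment. No other call of the set differed there. Across alternatives limma p values of Ctsl ranged from 0.0276, with the block, to 0.999, without untreated Ct replicate 3.

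Directions of near-zero values reversed. Cst3 was at -0.0045 with median centring, -0.014 with quantile normalization and -0.0062 with limma-voom, and Lamp2 at -0.0033 with quantile normalization. Leaving out 1 library each gave -0.068 to 0.076 for Cst3, -0.0092 to 0.058 for Lamp2, -0.14 to 0.052 for Ctsa, -0.027 to 0.0092 for Ctsd, -0.014 to 0.098 for Ctsf, -0.015 to 0.094 for Laptm4a, -0.0019 to 0.092 for Dnase2b and -0.073 to 0.0091 for Lamtor2. The cause was not tested. Without untreated Ct replicate 3 the relation to epithelium markers changed sign for Ctsz (0.519), Ctsd (0.275), Lamp1 (0.567) and Lamp2 (0.247), and on deviations from group means for Lamp1 (0.262).

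Genes with a p value under 0.05 numbered 473 of all tested genes as reported, 862 with no minimum FPKM (0 after adjustment) and 226 with a minimum of 5 FPKM, where fewer genes were tested, and 417 to 521 when 1 library was left out (0 to 1 after adjustment). After adjustment 1 gene was called as reported, 0 with eBayes without a trend and 2 with limma-voom. Of the other lysosomal genes 4 had a p value under 0.05 as reported, 2 with a minimum of 5 FPKM and 3 to 8 when 1 library was left out, with 8 without CS-exposed replicate 3. Atp6ap1 lost its call without a trend and when untreated Ct replicate 2 or 3 or CS-exposed replicate 4 was left out. Calls were gained, when 1 library was left out, by Atp6v1f, Manba, Lamtor1, Cstb, Mtor, Tpp1 and Vps29, with lowest limma p values from 0.0108 for Atp6v1f to 0.0486 for Vps29. Gnptg kept its call in every alternative that tested it, and was below the minimum of 5 FPKM.

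Ctsl and Ctsz exchanged places in the untreated Ct libraries alone, so that 8 of 10 genes kept their place in the order of levels. Ctsh, with 1 to 28 reads, is limited by depth.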
